A study of Homo sapiens with 12 samples.

Results

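The erythropoietin-producing hepatocellular (Eph) receptors and their ephrin ligands were examined in 4 stable lines of HCT116, a human colorectal cancer cell line. The genes are the 5 receptors EPHA1, EPHA2, EPHB2, EPHB3 and EPHB4 and the 4 ligands EFNA1, EFNA4, EFNB1 and EFNB2. They were taken by symbol from the table of read counts, which lists 28395 genes. All 9 are among the 15853 genes that reached 0.5 CPM (read counts scaled to a library of a standard size) in at least 3 of the 12 RNA-seq libraries and were tested.

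Eph receptors are receptor tyrosine kinases that bind ephrins on the surface of a neighbouring cell, and both the receptor-bearing and the ephrin-bearing cell can respond. A ligands are tethered to the membrane by a lipid anchor and mainly bind A receptors, while B ligands span the membrane and mainly bind B receptors. In the intestinal crypt, EPHB2 and EPHB3 are high in the stem and progenitor cells at the base and their ligands EFNB1 and EFNB2 are high in the differentiated cells above them, and repulsion between the cells keeps these compartments apart. A culture of HCT116 cells holds no crypt, so the levels are those of 1 cell line in 4 states.

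HCT116 EV cells carried the empty pcDNA vector and were selected with geneticin (G418). HCT116 EHF cells were geneticin-resistant clones that carried a plasmid for EHF, an epithelium-specific transcription factor of the ETS family. HCT116 CDX1 cells carried a retrovirus with CDX1, an intestinal homeobox transcription factor, and green fluorescent protein, and were a population sorted for that fluorescence. HCT116 EHF+CDX1 cells were geneticin-resistant clones of CDX1 cells transfected with the EHF plasmid. Each line had 3 libraries. EV and EHF cells thus shared the type of vector and the selection. In every other pair of lines the vector, the selection or the sorting differs along with the factors and cannot be told apart from them.

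EHF was at 299 ± 54.4 CPM in EV, 19312 ± 305 in EHF, 12.3 ± 0.603 in CDX1 and 18708 ± 1433 in EHF+CDX1 cells (SD, n = 3 each). CDX1 had at most 1 read per EV library and at most 4 per EHF library, and was at 525 ± 35.8 CPM in CDX1 and 5419 ± 277 CPM in EHF+CDX1 cells (SD, n = 3 each). The line with both factors therefore differed from the CDX1 line in the dose of CDX1 as well as in EHF. CDX1 cells also had less EHF than EV cells, so that this pair differed in both factors. The epithelial markers EPCAM, KRT8, KRT18 and CDH1 were present in every line, with a summed level from 1982 to 3991 CPM per library. The leukocyte marker PTPRC had at most 6 reads per library. EV replicate 3 stood apart, with a root mean square log2 difference over all genes tested of 0.895 and 0.884 from replicates 1 and 2, which differed from each other by 0.419. Libraries of the other lines differed by 0.245 to 0.417. Total counts ranged from 13523007 to 74186741 per library, and the lowest count of any of the 9 genes in any library was 106.

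Levels are given as CPM after trimmed mean of M-values (TMM) scaling, which corrects library sizes for differences in composition. A gene was called higher or lower when its change exceeded 1.5-fold at a Benjamini-Hochberg adjusted p of 0.05 over all 15853 genes in edgeR's quasi-likelihood fit, and the adjusted p-values below are from this test unless the test against no change is named. EV replicate 3 was above the mean of EV replicates 1 and 2 for all 9 genes, by 4.42-fold for EPHA2, 2.09-fold for EFNA1 and 2.04-fold for EFNB2, and by 1.11-fold to 1.66-fold for the other 6. Counts of genes called against EV cells are therefore also given without this library, as are those values of the 9 genes that it moved by over 1.5-fold or across the threshold. In bulk RNA, fewer cells that express a gene and less RNA per cell cannot be told apart.

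The promoters of EPHA1, EFNA4 and EFNB2 are shown because EPHA1 and EFNA4 are the receptor and the ligand that fell most in CDX1 against EV cells and EFNB2 is the 1 member called higher there. Each window holds the 250 bases before the transcription start in RefSeq (GRCh38.p14), written 5′ to 3′ on the strand of the gene. The EPHA1 window is chr7:143408857-143409106 on the minus strand, the EFNA4 window chr1:155063490-155063739 on the plus strand and the EFNB2 window chr13:106535663-106535912 on the minus strand. Capitals mark matches on either strand to GGAAG, part of the core bound by ETS factors, to TTTAT, part of the site of CDX factors, or to CTTTGA, part of the site of the Wnt effectors TCF and LEF.
EPHA1: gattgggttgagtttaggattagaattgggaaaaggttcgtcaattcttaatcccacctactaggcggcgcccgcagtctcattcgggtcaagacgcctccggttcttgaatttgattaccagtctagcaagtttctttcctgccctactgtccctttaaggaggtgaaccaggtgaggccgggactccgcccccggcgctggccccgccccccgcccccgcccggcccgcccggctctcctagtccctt
EFNA4: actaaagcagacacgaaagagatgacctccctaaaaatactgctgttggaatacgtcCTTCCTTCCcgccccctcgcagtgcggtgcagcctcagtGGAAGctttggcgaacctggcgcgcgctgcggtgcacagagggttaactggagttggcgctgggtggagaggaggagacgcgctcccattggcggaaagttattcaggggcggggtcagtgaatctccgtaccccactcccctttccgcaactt
EFNB2: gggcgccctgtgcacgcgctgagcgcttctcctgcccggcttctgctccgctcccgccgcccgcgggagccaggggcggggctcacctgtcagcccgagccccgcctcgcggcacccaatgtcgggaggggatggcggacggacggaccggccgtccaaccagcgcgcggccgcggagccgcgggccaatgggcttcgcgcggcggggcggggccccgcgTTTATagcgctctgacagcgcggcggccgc

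GGAAG was found in the windows of 4 of the 9 genes, with 3 matches each in EPHA2 and EFNA4, 2 in EPHB4 and 1 in EFNB1, and in 65.1% of all 27305 promoters of the same length. In EFNA4, 2 of the matches lie on the minus strand and share 1 base, beginning 193 and 189 bases before the start, and the other begins 154 bases before it. TTTAT was found in EFNB2 and in 33.7% of all promoters. It begins 30 bases before the EFNB2 start and overlaps TATAA, the core of a TATA box, on the other strand, which 19.6% of all promoters hold and which was looked up after the match was seen. CTTTGA was found in EPHA2 and in 11.4% of all promoters. The windows of EPHA1, EPHB2, EPHB3 and EFNA1 held none of the 3 motifs, and a match describes letters only, not binding.

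EPHA1 (Entrez 2041, chr7:143391129-143408856), a receptor of A ligands, was the member that fell in each comparison with EV cells that included CDX1. Its level was 68.8, 71.7 and 107 CPM in the EV libraries, and 44.9, 45.5 and 45.7 CPM in the EHF libraries. It was 15.5, 17.1 and 17.5 CPM in the CDX1 libraries, and 39.8, 40.7 and 36.5 CPM in the EHF+CDX1 libraries. The libraries of all 4 lines were separate, with EV highest and CDX1 lowest. EPHA1 was 4.95-fold lower in CDX1 than in EV cells (log2 fold change -2.31, SE 0.15, adjusted p = 4.76e-07) and 2.12-fold lower in EHF+CDX1 than in EV cells (log2 fold change -1.08, SE 0.15, adjusted p = 0.00784). The second of these calls was lost with limma voom, with the deposited log2 RPKM values and with only the libraries compared. The highest adjusted p, 0.0746, came with only the libraries compared. In the test against no change EPHA1 passed in this pair (adjusted p = 0.000173). Compared with CDX1 cells it was 2.33-fold higher in EHF+CDX1 cells (log2 fold change 1.22, SE 0.15, adjusted p = 0.000521). EHF cells were 1.82-fold below EV cells, which passed the test against no change (adjusted p = 0.000946) and not the 1.5-fold test (adjusted p = 0.102), except without EV replicate 1 (adjusted p = 0.0293) or EV replicate 2 (adjusted p = 0.049), in a range up to 0.684 over all alternatives. Of the neighbours in the order EV, EHF, EHF+CDX1 and CDX1, only EHF and EHF+CDX1 did not pass the test against no change (adjusted p = 0.434). Without EV replicate 3 this pair passed it too (adjusted p = 0.0163). EPHA1 overlaps the counted antisense gene EPHA1-AS1, and the strand setting of the counting is not given in the sources used here.

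EPHA2 (Entrez 1969, chr1:16124337-16156069), the receptor most often linked to carcinoma cells and a partner of EFNA1, stood out for the spread of its EV libraries. Its level was 158, 155 and 691 CPM in the EV libraries and 387, 375 and 375 CPM in the EHF libraries. It was 669, 746 and 672 CPM in the CDX1 libraries and 351, 367 and 381 CPM in the EHF+CDX1 libraries. EV replicates 1 and 2 lay below all other libraries, whereas EV replicate 3 lay among the CDX1 libraries. With all libraries EPHA2 was not called in any comparison, and in CDX1 against EV cells its log2 fold change was 1.06 (SE 0.45, adjusted p = 0.146). When EV replicate 3 was left out, EPHA2 was higher than in EV cells by 2.42-fold in EHF cells (adjusted p = 5.1e-09), 4.44-fold in CDX1 cells (adjusted p = 2.36e-14) and 2.34-fold in EHF+CDX1 cells (adjusted p = 1.08e-08). These were the lowest adjusted p over all alternatives, the highest being 1, 0.697 and 1. Whether EPHA2 was called against EV cells thus depended on that library. With it no neighbours in the order CDX1, EHF, EHF+CDX1 and EV passed the test against no change, with adjusted p from 0.101 to 0.97. The CDX1 libraries nevertheless lay above every EHF and EHF+CDX1 library. EV replicate 3 is no part of those pairs but adds to the shared estimate of spread. With only the libraries compared, EPHA2 was called higher in CDX1 than in EHF cells (log2 fold change 0.84, adjusted p = 0.000275). It was then also called lower in EHF+CDX1 than in CDX1 cells (log2 fold change -0.91, adjusted p = 7.75e-05).

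**Figure D1:**
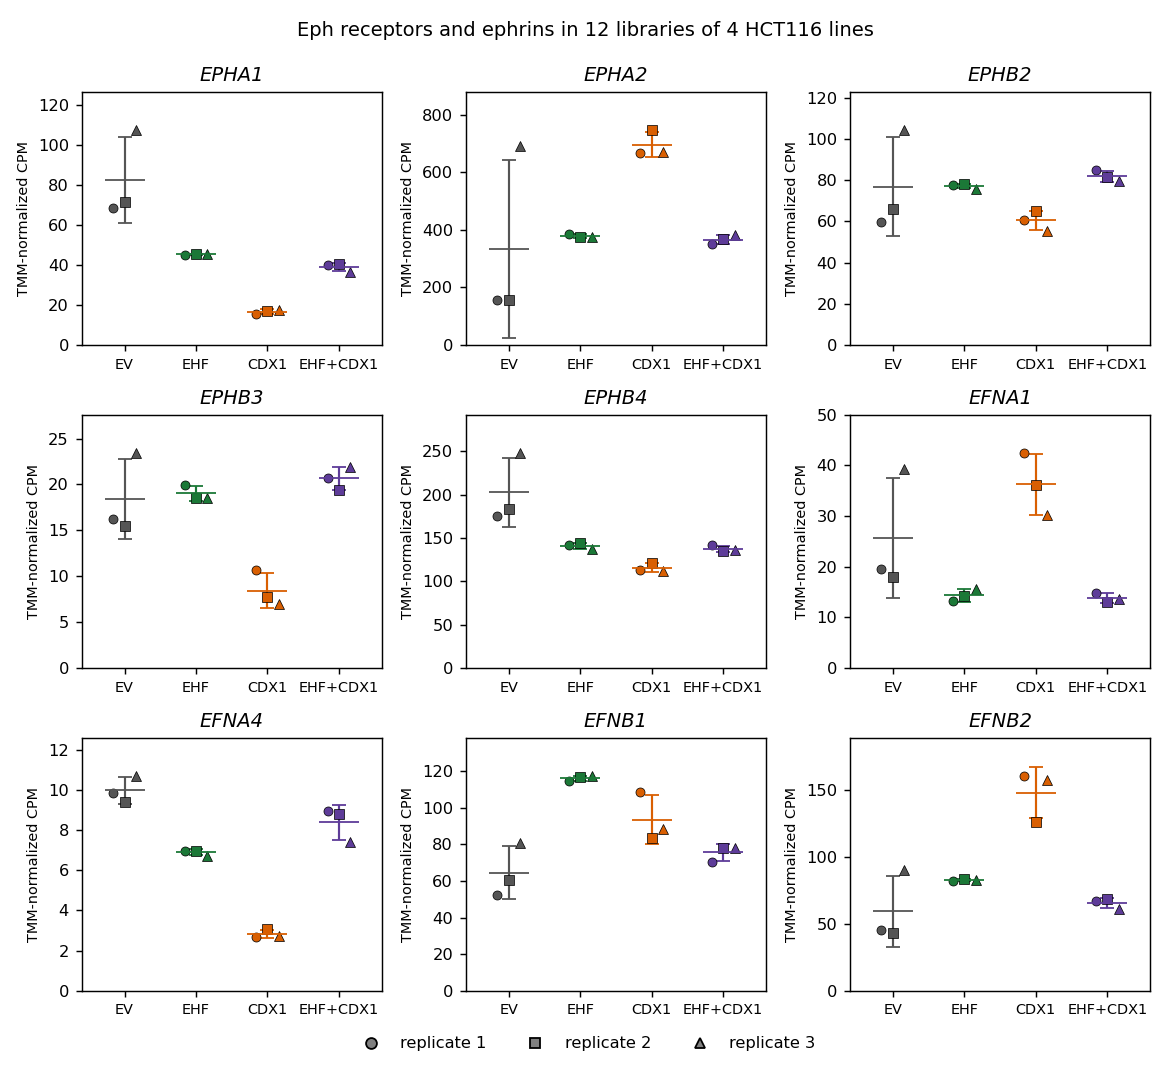
Level of each Eph receptor and ephrin in each of the 12 libraries, in TMM-normalised CPM from 0, with 1 panel per gene, a symbol for each replicate, and the mean and SD of each line (n = 3). EV replicate 3 is the highest EV point in all 9 panels, at 691 CPM against 155 and 158 CPM for EPHA2, and the CDX1 points are the lowest for EPHA1, EPHB3, EPHB4 and EFNA4.

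EPHB2 (Entrez 2048, chr1:22710838-22921500), the receptor of the crypt base, was not called in any comparison, with or without EV replicate 3. Its level was 59.7, 66.1 and 104 CPM in the EV libraries, 77.7, 77.9 and 75.8 CPM in the EHF libraries, 60.9, 64.9 and 55.4 CPM in the CDX1 libraries and 84.7, 81.3 and 79.5 CPM in the EHF+CDX1 libraries. The CDX1 libraries lay below those of EHF and EHF+CDX1 cells and overlapped those of EV cells. The largest difference, 1.36-fold between EHF+CDX1 and CDX1 cells, passed the test against no change (log2 fold change 0.44, SE 0.17, adjusted p = 0.0349).

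EPHB3 (Entrez 2049, chr3:184561785-184582408), which acts beside EPHB2 in the crypt, was at 16.2, 15.5 and 23.4 CPM in the EV libraries and at 19.9, 18.6 and 18.5 CPM in the EHF libraries. It was at 10.6, 7.71 and 6.95 CPM in the CDX1 libraries and at 20.7, 19.4 and 21.9 CPM in the EHF+CDX1 libraries. The CDX1 libraries lay below every other library, and those of the other 3 lines overlapped. EPHB3 was 2.19-fold lower in CDX1 than in EV cells (log2 fold change -1.13, SE 0.18, adjusted p = 0.00395) and 2.44-fold higher in EHF+CDX1 than in CDX1 cells (log2 fold change 1.29, SE 0.18, adjusted p = 0.00104). Both calls were lost with limma voom and with the deposited log2 RPKM values, where the adjusted p reached 0.178 and 0.0614. EHF+CDX1, EHF and EV cells, in that order, did not pass the test against no change between neighbours (adjusted p = 0.764 and 0.886).

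EPHB4 (Entrez 2050, chr7:100802565-100827523), a receptor of EFNB2 best known from veins, was at 176, 184 and 248 CPM in the EV libraries and at 142, 144 and 137 CPM in the EHF libraries. It was at 113, 121 and 112 CPM in the CDX1 libraries and at 142, 135 and 136 CPM in the EHF+CDX1 libraries. The EV libraries were the highest and the CDX1 libraries the lowest, with those of EHF and EHF+CDX1 cells overlapping between them. EPHB4 was 1.75-fold lower in CDX1 than in EV cells (log2 fold change -0.81, SE 0.12, adjusted p = 0.0265), a call that was lost without EV replicate 3 (log2 fold change -0.64, adjusted p = 0.109). It was also lost without CDX1 replicate 1 (adjusted p = 0.0677), without CDX1 replicate 3 (adjusted p = 0.0689) and with DESeq2 (adjusted p = 0.206). EHF and EHF+CDX1 cells were 1.44-fold and 1.47-fold below EV cells, and both passed only the test against no change (adjusted p = 0.00568 and 0.00334). EPHB4 overlaps the counted gene SLC12A9.

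Among the A ligands, EFNA1 (Entrez 1942, chr1:155127876-155134899), the main ligand of EPHA2, was at 19.6, 17.9 and 39.3 CPM in the EV libraries and at 13.2, 14.1 and 15.6 CPM in the EHF libraries. It was at 42.4, 36.2 and 30.2 CPM in the CDX1 libraries and at 14.8, 13.0 and 13.5 CPM in the EHF+CDX1 libraries. The libraries with EHF, alone or with CDX1, lay below all others, and those of CDX1 and EV cells overlapped through EV replicate 3. EFNA1 was 2.63-fold lower in EHF+CDX1 than in CDX1 cells (log2 fold change -1.39, SE 0.25, adjusted p = 0.00358) and 2.53-fold higher in CDX1 than in EHF cells (log2 fold change 1.34, SE 0.25, adjusted p = 0.005). CDX1 and EV cells, the first neighbours in the order, did not pass the test against no change (adjusted p = 0.096). It was called in that pair, 1.93-fold higher in CDX1 cells, when EV replicate 3 was left out (adjusted p = 0.00239, in a range up to 1 over all alternatives).

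EFNA4 (Entrez 1945, chr1:155063740-155069553), an A ligand whose gene lies near EFNA1 on chromosome 1, was called in 3 of the pairs of lines, each of them with CDX1 cells at the lower end. It was at 9.86, 9.37 and 10.7 CPM in the EV libraries and at 6.97, 6.97 and 6.71 CPM in the EHF libraries. It was at 2.69, 3.08 and 2.73 CPM in the CDX1 libraries and at 8.94, 8.81 and 7.39 CPM in the EHF+CDX1 libraries. The libraries of the 4 lines did not overlap, and EV replicate 3 was close to the other EV libraries for this gene. EFNA4 was 3.52-fold lower in CDX1 than in EV cells (log2 fold change -1.82, SE 0.13, adjusted p = 1.63e-06) and 2.97-fold higher in EHF+CDX1 than in CDX1 cells (log2 fold change 1.57, SE 0.13, adjusted p = 1.08e-05). EHF+CDX1 cells did not pass the test against no change against either of their neighbours in the order, EV (adjusted p = 0.156) and EHF (adjusted p = 0.187). Without EV replicate 3 the pair with EHF passed it (adjusted p = 0.0392) and the pair with EV did not (adjusted p = 0.249). EFNA4 and EFNA1 were both called between EHF+CDX1 and CDX1 cells, in opposite directions. EFNA4 overlaps the counted antisense gene DCST1-AS1 and the read-through genes ADAM15-EFNA4 and EFNA4-EFNA3, which were not counted, so its reads can include theirs.

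Of the B ligands, EFNB1 (Entrez 1947, chrX:68829021-68842160), a ligand of EPHB2 and EPHB3 in the crypt, was at 52.2, 60.7 and 80.5 CPM in the EV libraries and at 114, 116 and 117 CPM in the EHF libraries. It was at 108, 83.3 and 88.5 CPM in the CDX1 libraries and at 70.3, 78.1 and 78.2 CPM in the EHF+CDX1 libraries. EHF libraries were the highest, and those of EHF+CDX1 cells lay within the range of the EV libraries. EFNB1 was not called in any pair of lines with all libraries. In CDX1 against EV cells its log2 fold change was 0.53 (SE 0.15) and passed the test against no change (adjusted p = 0.00646). Without EV replicate 3 EFNB1 was called higher in this pair (log2 fold change 0.73, adjusted p = 0.045). In EHF against EV cells its log2 fold change was 0.85 (SE 0.15) and passed the test against no change (adjusted p = 0.00116) but not the 1.5-fold test (adjusted p = 0.128), which it passed without EV replicate 3 (log2 fold change 1.04, adjusted p = 0.000223) and with total counts as library size (log2 fold change 0.89, adjusted p = 0.0369). No neighbours in the order EHF, CDX1, EHF+CDX1 and EV passed the test against no change, with adjusted p from 0.0776 to 0.267. Without EV replicate 3, which adds to the shared estimate of spread, all of these neighbours passed it (adjusted p from 0.0013 to 0.00209).

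EFNB2 (Entrez 1948, chr13:106489745-106535662), the other transmembrane ligand of the crypt and the partner of EPHB4, was the only member called higher in CDX1 than in EV cells with all libraries. Its level was 45.4, 42.9 and 89.9 CPM in the EV libraries and 81.7, 83.5 and 82.9 CPM in the EHF libraries. It was 160, 126 and 157 CPM in the CDX1 libraries and 66.7, 68.8 and 61.1 CPM in the EHF+CDX1 libraries. The CDX1 libraries lay above every other library, and the EHF+CDX1 libraries lay between the lowest and the highest EV library. EFNB2 was 2.48-fold higher in CDX1 than in EV cells (log2 fold change 1.31, SE 0.23, adjusted p = 0.00331) and 2.25-fold lower in EHF+CDX1 than in CDX1 cells (log2 fold change -1.17, SE 0.23, adjusted p = 0.00994). Both calls were lost with limma voom and with the deposited log2 RPKM values, and the second with total counts as library size, where the adjusted p reached 0.0815 and 0.344. EHF cells, next in the order, differed from CDX1 cells in the test against no change (adjusted p = 0.00653) and not from EHF+CDX1 cells (adjusted p = 0.436). Without EV replicate 3, EHF and EHF+CDX1 cells also differed in that test (adjusted p = 0.0025). Set against EV replicates 1 and 2 alone, EFNB2 was higher than in EV cells by 3.34-fold in CDX1 cells (adjusted p = 2.39e-10) and by 1.87-fold in EHF cells (adjusted p = 0.00262).

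Taking the 9 genes by comparison, the largest shift from EV cells was in the CDX1 line, where 1 rose (EFNB2) and 4 fell (EPHA1, EPHB3, EPHB4 and EFNA4). Of all genes tested, 21.3% were called higher and 23.3% lower in this comparison. The calls of EFNB2, EPHB3 and EPHB4 were each lost under some alternatives, so neither count is read as a difference from this background. Against no change, 6 of the 9 passed, beside 68.9% of all genes. The median log2 fold change of the 9 was -0.35, beside -0.03 for all genes. With EV replicate 3 left out the calls were 4 higher (EPHA2, EFNA1, EFNB1 and EFNB2) and 3 lower (EPHA1, EPHB3 and EFNA4), beside 26.3% and 24.8% of the 15758 genes that then passed the filter. EPHA2 was the only receptor among the genes then called higher.

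Other cell identity markers also moved in CDX1 cells. KRT8 and KRT18 were 2.15-fold and 1.81-fold lower than in EV cells (adjusted p = 0.00195 and 0.0325) and EPCAM was 1.85-fold higher (adjusted p = 0.0306), and the summed level of the 4 epithelial markers was 1982 to 2361 CPM in CDX1 cells and 3177 to 3991 CPM in EV cells. The summed level of the 4 non-epithelial markers was 168 to 220 CPM in CDX1 and 33.5 to 75.7 CPM in EV libraries. Nearly all of it was the collagen gene COL1A1, at 186 ± 29.2 CPM in CDX1 cells and 46.9 ± 23.1 CPM in EV cells (SD, n = 3 each), while PTPRC, COL3A1 and PECAM1 stayed under the filter. The TMM factors were 0.7995 to 0.8449 in CDX1 and 0.973 to 1.095 in the other lines. The part of these in the Eph and ephrin differences was not tested.

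In HCT116 EHF cells none of the 9 was called higher or lower than in EV cells at 1.5-fold, beside 5.68% and 2.65% of all genes. Against no change, 5 of the 9 passed, beside 30.1% of all genes, with EPHA1, EPHB4, EFNA1 and EFNA4 lower and EFNB1 higher. Their log2 fold changes lay between -0.87 for EPHA1 and 0.85 for EFNB1. The median of the 9 was 0.01, beside -0.04 for all genes. With EV replicate 3 left out, EPHA2, EFNB1 and EFNB2 were called higher and none lower, beside 9.51% and 3.46% of all genes.

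In HCT116 EHF+CDX1 cells none of the 9 was called higher than in EV cells and 1 was called lower, EPHA1, beside 7.3% and 3.13% of all genes. Against no change 3 passed, beside 33.6% of all genes, and all 3 were lower (EPHA1, EPHB4 and EFNA1). The median log2 fold change of the 9 was 0.09, beside -0.03 for all genes. Leaving out EV replicate 3 gave EPHA2 higher and EPHA1 lower, beside 11.2% and 4.28% of all genes. In the same comparison all 5 colonic markers, VIL1, CDH17, GPA33, KRT20 and CDX2, were called higher, with a summed level of 164 to 174 CPM in EHF+CDX1 and 25.1 to 39.0 CPM in EV libraries. VIL1, CDH17 and GPA33 reached at most 0.378 CPM in the other lines and passed the filter only through the EHF+CDX1 libraries. The crypt receptors EPHB2 and EPHB3 and the ligands EFNB1 and EFNB2 had log2 fold changes between 0.09 and 0.23 there, none past the test against no change (adjusted p from 0.267 to 0.712). Set against EV replicates 1 and 2 alone, the log2 fold changes of these 4 were 0.37 to 0.57, all past the test against no change (adjusted p from 3.44e-05 to 0.0264) and none past the 1.5-fold test. In that setting 8 of the 9 genes passed the test against no change, so passing it was not particular to these 4. The share of all genes that passed it there was not counted.

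**Figure D2:**
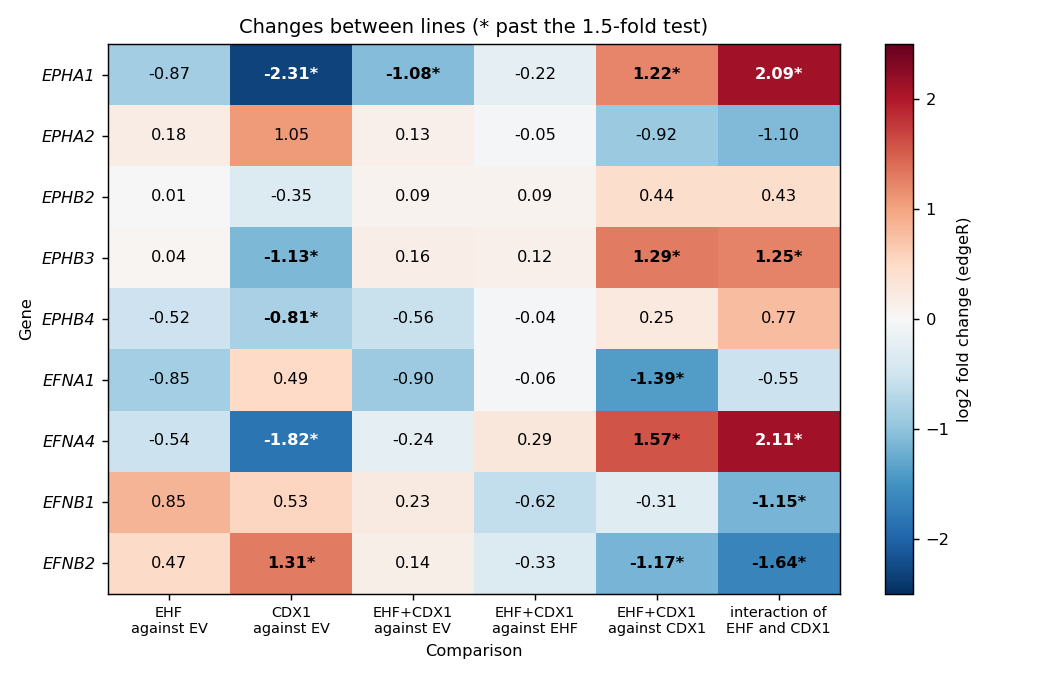
Heat map of the log2 fold change of each of the 9 genes (vertical axis) in 5 pairs of lines and in the interaction (horizontal axis), with red for higher and blue for lower and an asterisk for values past the 1.5-fold test. The CDX1 against EV column runs from -2.31 for EPHA1 to 1.31 for EFNB2, while the columns of the lines with EHF against EV lie between -1.08 and 0.85.

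Between EHF+CDX1 and EHF cells none of the 9 was called, beside 2.49% of all genes higher and 0.189% lower, and 1 of 9 passed the test against no change, beside 9.78%. That gene was EFNB1, which was 1.54-fold lower with both factors (log2 fold change -0.62, SE 0.15, adjusted p = 0.0198). The other 8 differed by log2 fold changes between -0.33 for EFNB2 and 0.29 for EFNA4. Leaving out EV replicate 3, which is no part of this comparison but adds to the shared estimate of spread, again gave no call, beside 3.34% and 0.838% of all genes. Against no change 4 of the 9 then passed, EPHA1, EFNA4, EFNB1 and EFNB2 (adjusted p from 1.36e-05 to 0.0392). The share of all genes that passed that test in this setting was not counted.

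Between EHF+CDX1 and CDX1 cells 5 of the 9 were called. EFNA4, EPHB3 and EPHA1 were higher and EFNA1 and EFNB2 lower with both factors, beside 22.3% and 18.7% of all genes called higher and lower, so that both counts were near the background. Against no change 6 passed, beside 67.2%, the sixth being EPHB2. Leaving out EV replicate 3 added EPHA2 to the genes called lower (1.90-fold lower, adjusted p = 1.2e-06, in a range up to 1 over all alternatives), which made 3 higher and 3 lower, beside 25.8% and 22.3%. CDX1 levels differ between these lines along with EHF, and the part of each cannot be told apart.

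CDX1 cells set against EHF cells had EFNA1 higher and EPHA1, EPHB3 and EFNA4 lower, that is 1 and 3 of the 9, beside 19.1% and 21.2% of all genes. The call of EPHB3 was lost with limma voom (adjusted p = 0.207) and with the deposited log2 RPKM values (adjusted p = 0.185). Against no change 6 passed, beside 66.2%. With EV replicate 3 left out, EPHA2 (adjusted p = 7.14e-06) and EFNB2 (adjusted p = 0.000972) joined the genes called higher. The 3 lower genes were EPHA1, EPHB3 and EFNA4 again, beside 22.8% of all genes higher and 24.7% lower.

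Whether the difference that came with EHF was the same with and without CDX1 was tested with an interaction term, the log2 fold change of EHF+CDX1 over CDX1 cells minus that of EHF over EV cells. It was called above 0 for 3 of the 9 genes, EFNA4 (2.11, SE 0.18, adjusted p = 9.64e-06), EPHA1 (2.09, SE 0.21, adjusted p = 3.35e-05) and EPHB3 (1.25, SE 0.25, adjusted p = 0.0107). It was called below 0 for 2, EFNB2 (-1.64, SE 0.32, adjusted p = 0.00501) and EFNB1 (-1.15, SE 0.21, adjusted p = 0.00804). Of all genes, 20.2% were called above and 18% below 0, so that these counts too were near the background. The calls of EPHB3 and EFNB1 were lost with limma voom and with the deposited log2 RPKM values, that of EPHB3 also with DESeq2 and that of EFNB1 also with total counts, and the adjusted p reached 0.162 and 0.115. Against no change 6 of the 9 passed, beside 58.5%, the sixth being EPHB4 (0.77, SE 0.17, adjusted p = 0.00178), which also passed the 1.5-fold test without EV replicate 1 (0.87, adjusted p = 0.039) and with limma voom, total counts or the deposited log2 RPKM values. For EPHA1 and EFNA4, EHF cells lay below EV cells, while EHF+CDX1 cells lay above CDX1 cells, and for EFNB1 and EFNB2 the fitted values had the opposite pattern, except that with total counts as library size EFNB1 was higher in EHF+CDX1 than in CDX1 cells. Leaving out EV replicate 3, EPHA2 (-2.20, adjusted p = 1e-12) and EFNA1 (-1.01, adjusted p = 0.00605) were also called below 0, so that 3 were above and 4 below, beside 23.3% and 24.4%. EHF+CDX1 cells had more CDX1 than CDX1 cells, and CDX1 cells had less EHF than EV cells (means of 12.3 and 299 CPM). The term therefore also holds these differences in dose, and on the log2 scale the EHF step was larger in the pair with CDX1.

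**Figure D3:**
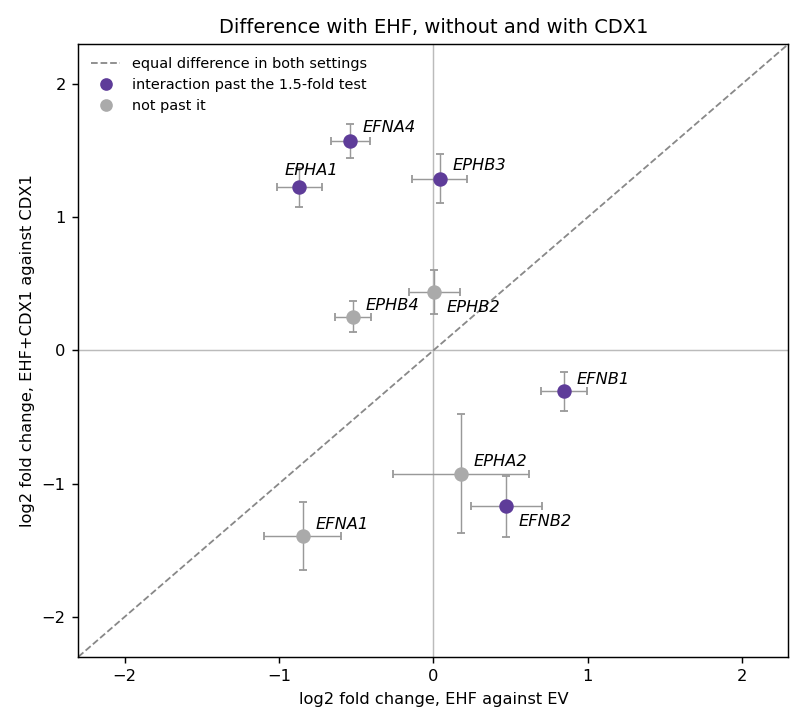
Log2 fold change of EHF+CDX1 over CDX1 cells against that of EHF over EV cells for each gene, with standard errors, a dashed line of equal difference and purple points for interactions past the 1.5-fold test. EPHA1 and EFNA4 lie farthest above the line, with interactions of 2.09 and 2.11, and EFNB2 lies farthest below it, with -1.64.

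To compare levels between genes, which differ in length, the deposited RPKM values (read counts per kilobase of exon and library size, quantile-normalised between libraries) were used. Ratios between a receptor and a ligand are a description of transcript levels in one library, with no test. EPHB2 over EFNB2 was 1.15, 1.34 and 1.01 in the EV libraries, 0.820, 0.809 and 0.782 in the EHF libraries, 0.366, 0.477 and 0.332 in the CDX1 libraries and 1.11, 1.03 and 1.14 in the EHF+CDX1 libraries. The CDX1 libraries had the lowest ratios, and the EHF+CDX1 ratios lay within the range of the EV libraries. EPHB3 over EFNB2 ranged from 0.261 to 0.371 in EV, 0.207 to 0.228 in EHF, 0.0649 to 0.102 in CDX1 and 0.269 to 0.348 in EHF+CDX1 libraries, the same order of lines. EPHB4 over EFNB2 ranged from 2.83 to 4.45 in EV, 1.71 to 1.80 in EHF, 0.736 to 0.980 in CDX1 and 2.02 to 2.31 in EHF+CDX1 libraries, so that EFNB2 exceeded EPHB4 per length only in the CDX1 line. EPHB2 over EFNB1 was 0.718 to 0.860 in EV and 0.670 to 0.796 in EHF+CDX1 libraries, and 0.416 to 0.438 and 0.395 to 0.526 in EHF and CDX1 libraries.

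The A family shifted between its members as well. EPHA2 over EPHA1 was 2.51, 2.37 and 6.54 in the EV libraries, 9.24 to 9.62 in EHF, 29.8 to 33.5 in CDX1 and 10.6 to 12.4 in EHF+CDX1 libraries. EPHA2 over its ligand EFNA1 was 4.39, 4.74 and 8.87 in the EV libraries, 14.3 to 17.6 in EHF, 6.73 to 9.23 in CDX1 and 14.5 to 17.9 in EHF+CDX1 libraries, highest in both lines with EHF. EPHA2 was the most abundant of the 5 receptors per length in all libraries except EV replicates 1 and 2, with 59.7% to 77.7% of their summed RPKM, and in those 2 EPHB4 led with 36.5% and 37.2%. EFNA1 over EFNA4 was 1.12 to 2.48 in EV, 1.17 to 1.46 in EHF, 5.63 to 7.50 in CDX1 and 0.904 to 1.12 in EHF+CDX1 libraries. EFNB1 led the 4 ligands per length in every library of EV, EHF and EHF+CDX1 cells, with 34.0% to 54.6% of their summed RPKM, and EFNB2 led in the 3 CDX1 libraries with 36.8% to 42.7%.

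**Figure D4:**
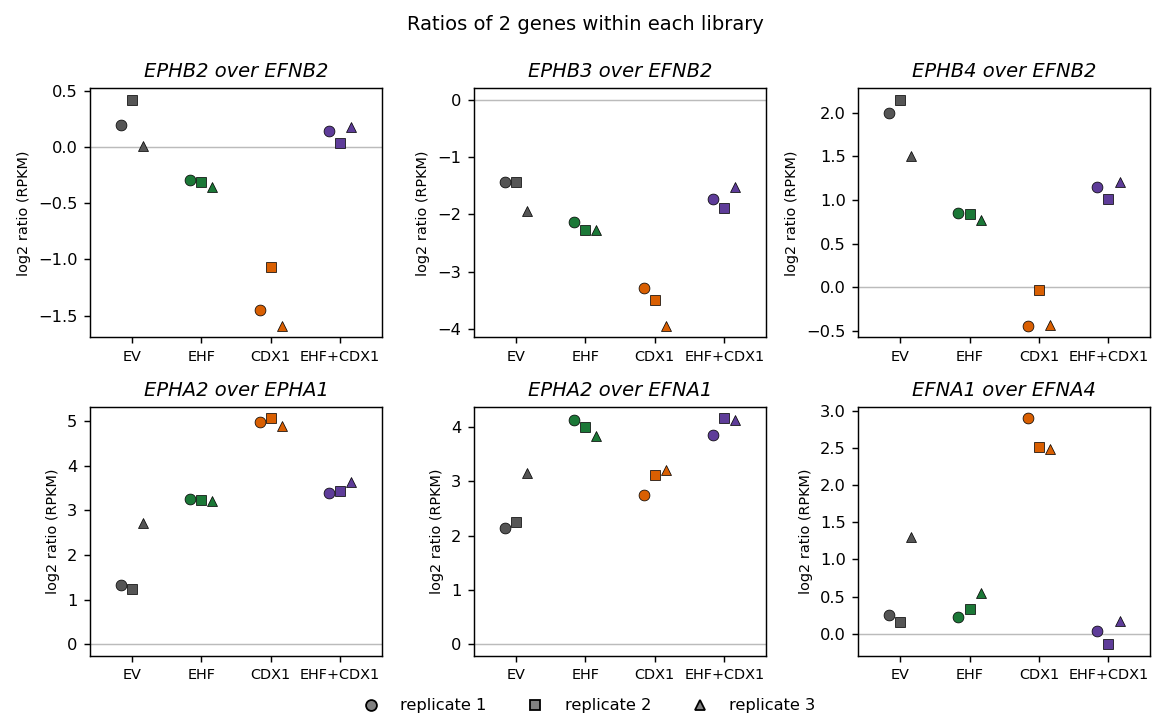
Log2 ratio of the deposited RPKM values of 2 genes within each of the 12 libraries, in 1 panel for each of 6 pairs, with a symbol for each replicate and the lines along the horizontal axis. On the linear scale EPHB2 over EFNB2 is 0.332 to 0.477 in the CDX1 libraries and at least 0.782 in all others.

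Of the 13 other Eph receptors and ephrins, 9 were tested, and EPHA3, EPHA5, EPHA6 and EPHA7 had at most 10 reads in any library. In EHF+CDX1 against EV cells 3 rose and 2 fell, beside 7.3% and 3.13% of all genes, and the median log2 fold change was 0.00, beside -0.03 for all genes. EPHA8, a receptor best known from the nervous system, was at 0.351 ± 0.224 CPM in EV, 3.92 ± 0.344 in EHF, 0.736 ± 0.0593 in CDX1 and 2.05 ± 0.578 CPM in EHF+CDX1 cells (SD, n = 3 each). It was 9.84-fold higher in EHF than in EV cells (adjusted p = 0.000106) and 5.31-fold higher in EHF+CDX1 than in EV cells (adjusted p = 0.00132), on 4 to 33 reads per EV library. Without EV replicate 3 these log2 fold changes rose from 3.30 to 4.09 and from 2.41 to 3.24, and EPHA8 was also called higher in CDX1 cells (1.69, adjusted p = 0.00884). EFNA5, a lipid-anchored A ligand, was at 0.944 ± 0.292 CPM in EV cells and between 2.56 and 3.52 CPM on average in the other lines, and was called higher in all 3, by 3.79-fold in EHF, 2.78-fold in CDX1 and 3.03-fold in EHF+CDX1 cells (adjusted p = 0.001, 0.00183 and 0.00403). EPHB6, a receptor whose kinase domain is inactive, was at 21.2 ± 5.05 CPM in EV, 16.3 ± 0.866 in EHF, 3.97 ± 0.261 in CDX1 and 9.72 ± 0.745 CPM in EHF+CDX1 cells (SD, n = 3 each). It was 5.35-fold lower in CDX1 than in EV cells (adjusted p = 4.86e-07) and 2.18-fold lower in EHF+CDX1 than in EV cells (adjusted p = 0.00665), with the CDX1 libraries lowest, as for EPHA1, EPHB3 and EFNA4.

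The remaining calls in that comparison, named after their values were seen, were EPHB1, higher on 41 to 128 reads in EHF+CDX1 libraries and 3 to 6 in EV libraries, and EPHA4, 2.48-fold lower (adjusted p = 0.00659). EPHB1 reached at most 0.357 CPM in the other lines, so it passed the filter and entered the count of genes that rose only through the EHF+CDX1 libraries. In CDX1 against EV cells 2 of the 9 rose and 3 fell, beside 21.3% and 23.3% of all genes, and in EHF against EV cells 2 rose and none fell, beside 5.68% and 2.65%. With EV replicate 3 left out the counts in EHF+CDX1 against EV cells were again 3 and 2, beside 11.2% and 4.28% of all genes. In CDX1 against EV cells they were then 3 and 3, beside 26.3% and 24.8%, and in EHF against EV cells 2 and 0, beside 9.51% and 3.46%.

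Of 25 adaptors and effectors that act below Eph receptors and ephrins, 24 were tested. In EHF+CDX1 against EV cells 4 rose and none fell, beside 7.3% and 3.13% of all genes, and in EHF against EV cells 5 rose and none fell, beside 5.68% and 2.65%. In CDX1 against EV cells 4 rose and 3 fell, and both counts were below the background of 21.3% and 23.3%. The median log2 fold changes were 0.03, 0.12 and 0.44, beside -0.03, -0.04 and -0.03 for all genes. NGEF, the exchange factor ephexin that acts downstream of A receptors, was at 2.12 ± 0.198 CPM in EV, 8.12 ± 0.862 in EHF, 13.4 ± 1.43 in CDX1 and 7.49 ± 0.760 CPM in EHF+CDX1 cells (SD, n = 3 each). It was 3.80-fold, 6.30-fold and 3.51-fold higher than in EV cells (adjusted p = 2.1e-05, 1.22e-07 and 3.13e-05). FYN, a Src family kinase recruited by ephrins and Eph receptors, was at 7.19 ± 3.12 CPM in EV, 24.7 ± 0.702 in EHF, 29.7 ± 3.33 in CDX1 and 17.1 ± 1.07 CPM in EHF+CDX1 cells (SD, n = 3 each), and was called higher than in EV cells in each line (adjusted p = 0.00113, 4.61e-05 and 0.0206). CHN1, a chimaerin that acts on Rac below EPHA4, was at 1.54 ± 0.440 CPM in EV and 3.997 ± 0.730 CPM in EHF+CDX1 cells (n = 3 each), which was 2.63-fold above (adjusted p = 0.0229) and was not called without EV replicate 3 (adjusted p = 0.0519). The fourth gene, named after its values were seen, was VAV3, on 10 to 69 reads in EHF+CDX1 and at most 3 in EV libraries. VAV3 reached at most 0.129 CPM in the other lines, so it too passed the filter and was counted only through the EHF+CDX1 libraries. With EV replicate 3 left out the counts in EHF+CDX1 against EV cells were 3 higher and none lower, beside 11.2% and 4.28% of all genes. They were 5 and 0 in EHF against EV cells, beside 9.51% and 3.46%, and 4 and 3 in CDX1 against EV cells, beside 26.3% and 24.8%.

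Of 6 genes for shedding and dephosphorylation, 5 were tested. ADAM10, the metalloprotease that cleaves ephrins bound to Eph receptors, was the only one called in EHF+CDX1 against EV cells. It was lower, beside 7.3% of all genes higher and 3.13% lower. The median log2 fold change of the 5 was -0.23, beside -0.03 for all genes. ADAM10 was at 195 ± 37.1 CPM in EV, 127 ± 4.28 in EHF, 61.6 ± 0.916 in CDX1 and 107 ± 0.930 CPM in EHF+CDX1 cells (SD, n = 3 each). It was 3.17-fold lower in CDX1 than in EV cells (log2 fold change -1.66, SE 0.12, adjusted p = 1.76e-06) and 1.83-fold lower in EHF+CDX1 than in EV cells (log2 fold change -0.87, SE 0.11, adjusted p = 0.0352). None of the 5 was called in EHF against EV cells, beside 5.68% of all genes higher and 2.65% lower. Only ADAM10 was called, lower, in CDX1 against EV cells, beside 21.3% of all genes higher and 23.3% lower. Without EV replicate 3, 2 of the 5 were called higher in CDX1 than in EV cells, among them the protease ADAM17, beside 26.3% of all genes. ADAM10 was again the 1 called lower, beside 24.8%, and the calls in the other 2 comparisons with EV were as before. PTPN1, a phosphatase that acts on Eph receptors, had a log2 fold change of 0.39 in EHF+CDX1 against EV cells (SE 0.11, adjusted p = 1).

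Among the 12403 genes whose log2 CPM averaged 1 or more, ADAM10 was also the gene whose levels followed those of EPHA1 most closely over the 12 libraries (Pearson r = 0.996 on log2 CPM). The closest gene was SDC4 for EPHA2 (r = 0.992), MMP25-AS1 for EPHB2 (r = 0.973), KCTD7 for EPHB3 (r = 0.982) and DGAT1 for EPHB4 (r = 0.994). It was TSC1 for EFNA1 (r = 0.981), PRODH for EFNA4 (r = 0.993), GPR137B for EFNB1 (r = 0.968) and GOLT1B for EFNB2 (r = 0.985). Among the 9 genes themselves, EPHA1 and EFNA4 were most alike (r = 0.928), followed by EPHA1 with EPHB4 (r = 0.922) and EPHA2 with EFNB2 (r = 0.904), while EFNA4 and EFNB2 ran most opposite (r = -0.867). The 12 points are 4 lines of 3 libraries that share one scaling, so these values carry no test. They describe differences between lines and also between libraries of a line, such as that of EV replicate 3 for EPHA2.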

How the data were processed

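RNA-seq was performed on 12 libraries, 3 for each of 4 HCT116 lines. The authors mapped reads with Subread to the GRCh38/hg38 genome, discarded those without a unique place and counted overlaps with RefSeq exons using featureCounts, both at version 2.0.0 in the submitters' processing notes, and deposited these raw counts per gene. The authors also deposited log2 RPKM values, made with limma voom, quantile normalization and exon length. The kit was directional, and the strand setting of the counting is not given in the sources used here.

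The counts were fitted with edgeR 4.0.16 (R 4.3.3), after genes that reached 0.5 CPM in fewer than 3 libraries had been removed, with 0.0585% of the counts. Genes without a symbol held 0.061% of them. A quasi-likelihood model of the 4 lines was fitted to all 12 libraries with TMM factors, the log2 fold changes, SE and tests against no change came from the F test, and calls from glmTreat against 1.5-fold at an adjusted p of 0.05. The scripts were tested on simulated data. All comparisons with EV cells share its 3 libraries.

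The 9 genes and the lists were chosen with earlier results of these data known. Also named were genes of each list called in EHF+CDX1 against EV cells and in a line with 1 factor, at most the 4 with the largest change, or the 2 with the largest change where fewer qualified, and the gene most correlated with each member. The labels do not say whether libraries of a line came from separate cultures, and the study calls its RNA-seq replicates biological in a clustering that names fewer of them than the 3 libraries per line used here. The p-values measure the spread between these libraries, which may be technical. Alternatives were limma 3.58.1 voom, DESeq2 1.42.0, RLE factors, total counts, no filter, a test against no change, only the libraries compared, a replicate block, the log2 RPKM values and each library left out. The lists without EV replicate 3 were counted after the data were seen. Positions and promoters came from RefSeq tables of GRCh38.p14, in which all 9 genes matched. A gene of the shedding list is not reported here by name. The authors' other experiments are not analysed here.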

Additional observations from a re-analysis of the deposited data

Results flagged for a closer look

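The log2 fold change of EHF+CDX1 over CDX1 cells differed from that of EHF over EV cells, by the interaction term of the edgeR fit, for 5 of the 9 genes, 3 above and 2 below 0, beside 20.2% and 18% of all genes. The interaction was 2.09 for EPHA1, 2.11 for EFNA4 and 1.25 for EPHB3, and -1.15 for EFNB1 and -1.64 for EFNB2. The calls of EPHB3 and EFNB1 were lost with limma voom (adjusted p = 0.113 and 0.115) and with the deposited log2 RPKM values (adjusted p = 0.162 and 0.111). Single libraries were not tested as outliers in groups of 3, and the position of EV replicate 3 is given by its distances.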

How the results depend on the processing

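Of 558 single-gene results recomputed under alternatives other than a left-out library, 513 kept their direction and side of the threshold, 21 lost the threshold, 20 gained it and 4 changed direction. RLE factors, no filter on low counts and the replicate block changed none of the 63 results each. The block had no ground in a shared pairing, since the 18 correlations between libraries with the same number in different lines lay between -0.0653 and 0.0802, 0 of them over 0.1, and 6 were best with their own number. The counts of genes called that moved by over 1.5 times were the following, smaller moves are not listed, and the cause was not tested. In EHF+CDX1 against EV cells, the 1 lower call became 0 with limma voom, with the log2 RPKM values and with only the libraries compared, and 3 against no change. In EHF against EV cells, the 0 higher calls became 1 with total counts and 1 against no change, and the 0 lower calls became 4 against no change. In CDX1 against EV cells, the 1 higher call became 0 with limma voom and with the log2 RPKM values, and 2 against no change. In EHF+CDX1 against EHF cells, the 0 lower calls became 1 against no change. In EHF+CDX1 against CDX1 cells and in the interaction, the 2 lower calls became 1 with limma voom, with total counts and with the log2 RPKM values. In CDX1 against EHF cells, the 1 higher call became 2 against no change and 3 with only the libraries compared. Leaving out 1 library at a time, the higher calls ranged from 0 to 1 in EHF+CDX1 against EV, 0 to 3 in EHF against EV, 1 to 4 in CDX1 against EV and 1 to 3 in CDX1 against EHF cells, and the lower calls from 2 to 4 in the interaction, each at the upper end without EV replicate 3. The lower calls in EHF against EV cells ranged from 0 to 1, with EPHA1 added without EV replicate 1 or 2.

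Directions that turned were small differences. With limma voom, EPHB3 in EHF against EV cells was at -0.0705 and EPHA2 in EHF+CDX1 against EHF cells at 0.0226, and at 0.0211 with the log2 RPKM values. With total counts, EFNB1 in EHF+CDX1 against CDX1 cells was at 0.0541. The median log2 fold change of all genes in that pair was 0.394 with total counts and 0.0388 with TMM factors. With 1 library left out, the log2 fold change ranged in EHF+CDX1 against EV cells from -0.21 to 1.23 for EPHA2, -0.0607 to 0.38 for EPHB2 and -0.0506 to 0.57 for EFNB2. In EHF against EV cells it ranged from -0.17 to 1.28 for EPHA2, -0.15 to 0.29 for EPHB2 and -0.0694 to 0.25 for EPHB3, and in EHF+CDX1 against EHF cells from -0.11 to 0.0133 for EFNA1. The limit of 3 counts lay between 0.0375 and 0.207 CPM, well under the levels of all 9 genes.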
